A study of Mus musculus with 19 samples.

Results

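The transcripts described here are 48 mouse genes whose mRNA accumulates in the growing oocyte or whose maternal product is used by the early embryo, listed by name. All 48 were found among the 22521 genes listed for morulae and for extra-embryonic ectoderm (ExE), the trophoblast layer that lies above the epiblast after implantation. Levels were given in RPKM, reads per kilobase of gene scaled to the mapped reads of the library, and 25 of the 48 averaged 1 RPKM or more in morulae, against 4 of 48 in ExE. Allelic reads were listed for 24 of the 48 in morulae.

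In the maternal knockout (matKO), the mothers carried Gdf9-Cre, a recombinase driven by the promoter of an oocyte growth factor gene, and 2 floxed copies of Eed, a core subunit of the H3K27 methyltransferase PRC2. The control (CTR) mothers carried the same floxed copies without the recombinase. All mothers were of a B6/129 background and all fathers were wild-type PWK, so every embryo had a functional paternal Eed copy, and the parent of origin and the strain of an allele cannot be told apart in this single direction of cross. The libraries used here came from whole morulae, 2 matKO and 2 CTR, and from ExE at embryonic day 6.5, with 4 female and 5 male matKO libraries and 2 female and 2 male CTR libraries. Neither the number of embryos behind a library nor the sex of the morulae was given, so the p-values measure the spread between these libraries, which may be in part technical.

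A mammalian oocyte stores mRNA and protein that carry the embryo until its own genome is transcribed, and in the mouse most stored mRNA is degraded around the 2-cell stage. Zona pellucida glycoproteins coat the oocyte, GDF9 and BMP15 signal to the surrounding follicle cells, and the subcortical maternal complex, which includes OOEP, TLE6, PADI6, NLRP5 and ZBED3, supports the first cleavages. Because the paternal genome enters with the sperm, reads that come only from the maternal allele in an embryo are the pattern that RNA carried over from the oocyte would give, and reads from both alleles require transcription after fertilisation. In bulk libraries, fewer cells that hold a transcript and less of it per cell cannot be told apart.

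The maternal share of the Eed allelic reads was 16.02% and 20.9% in matKO morulae, against 37.7% and 46.0% in CTR morulae. In ExE it was 11.1% to 17.1% in the 9 matKO libraries and 43.9% to 47.7% in the 4 CTR libraries, so every library matched its genotype label by this measure. The morula libraries held 3327373 to 5109159 allelic reads each, of which 50.4% to 50.8% of autosomal ones were maternal. The depth of the RPKM tables is unknown. In ExE, matKO male 4 and male 5 stood apart in most of 8 marker genes of the ExE, of which none was at 0 in any ExE library. Esrrb had 0.310 and 3.77 RPKM in them, against 26.0 to 55.8 RPKM in the other 11 libraries, Bmp4 had 2.95 and 14.7 RPKM against 85.5 to 196 RPKM, and Sox2 had 0.0717 and 1.501 RPKM against 9.17 to 23.1 RPKM. Eomes and Cdx2 were also lowest and Tfap2c and Gata3 highest in these libraries. Elf5 did not set them apart, with 185 and 204 RPKM, against 178 to 277 RPKM in the others. The sum over the 8 genes was 430 and 425 RPKM, against 464 to 714 RPKM in the others. The male 5 library also had 55.4 RPKM summed over 8 visceral endoderm genes, against 0.496 to 10.003 RPKM elsewhere. The matKO female 2 and male 2 libraries stood apart in the oocyte transcripts themselves.

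The promoters of the transcripts on which the results turn are shown because several oocyte genes are known targets of FIGLA, a germ cell helix-loop-helix factor that binds E-boxes. The windows are RefSeq sequences (GRCm38.p6) from 250 bases before to 50 bases after the annotated start, written 5′ to 3′ on the gene's strand, with the E-box CACCTG or its reverse complement CAGGTG in capitals. They lie at chr19:11691002-11691301 (minus strand) for Oosp1, chr9:78313999-78314298 (minus strand) for Omt2a, chr9:78327780-78328079 (plus strand) for Omt2b, chr12:105159454-105159753 (plus strand) for Tcl1b1, chr5:135979855-135980154 (plus strand) for Zp3 and chr9:78378539-78378838 (minus strand) for Ooep.
Oosp1: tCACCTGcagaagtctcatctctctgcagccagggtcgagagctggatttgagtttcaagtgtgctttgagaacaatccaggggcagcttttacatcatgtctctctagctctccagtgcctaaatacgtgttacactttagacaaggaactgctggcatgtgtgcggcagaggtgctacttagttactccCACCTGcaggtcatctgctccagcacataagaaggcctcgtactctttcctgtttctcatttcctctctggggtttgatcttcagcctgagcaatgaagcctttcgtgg
Omt2a: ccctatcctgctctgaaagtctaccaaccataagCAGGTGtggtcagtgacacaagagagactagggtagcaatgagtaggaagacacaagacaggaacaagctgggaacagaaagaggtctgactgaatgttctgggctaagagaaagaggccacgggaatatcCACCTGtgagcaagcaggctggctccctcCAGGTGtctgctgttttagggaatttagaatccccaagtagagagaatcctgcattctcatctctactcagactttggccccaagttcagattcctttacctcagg
Omt2b: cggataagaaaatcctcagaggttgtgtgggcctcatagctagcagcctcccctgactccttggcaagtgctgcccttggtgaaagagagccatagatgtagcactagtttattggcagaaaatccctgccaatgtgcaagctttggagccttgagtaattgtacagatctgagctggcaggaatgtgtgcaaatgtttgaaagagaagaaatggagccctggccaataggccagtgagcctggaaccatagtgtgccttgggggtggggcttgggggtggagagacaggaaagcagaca
Tcl1b1: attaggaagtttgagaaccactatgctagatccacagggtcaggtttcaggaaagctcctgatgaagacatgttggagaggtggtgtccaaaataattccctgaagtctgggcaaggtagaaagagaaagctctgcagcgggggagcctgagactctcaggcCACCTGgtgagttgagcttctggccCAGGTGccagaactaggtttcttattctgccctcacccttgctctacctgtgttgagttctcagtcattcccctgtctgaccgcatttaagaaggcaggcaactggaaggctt
Zp3: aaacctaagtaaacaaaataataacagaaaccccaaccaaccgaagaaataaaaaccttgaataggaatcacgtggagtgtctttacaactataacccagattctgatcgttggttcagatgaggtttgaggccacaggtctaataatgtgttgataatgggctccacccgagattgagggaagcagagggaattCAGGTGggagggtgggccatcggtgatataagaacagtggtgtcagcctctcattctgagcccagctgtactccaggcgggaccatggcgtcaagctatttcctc
Ooep: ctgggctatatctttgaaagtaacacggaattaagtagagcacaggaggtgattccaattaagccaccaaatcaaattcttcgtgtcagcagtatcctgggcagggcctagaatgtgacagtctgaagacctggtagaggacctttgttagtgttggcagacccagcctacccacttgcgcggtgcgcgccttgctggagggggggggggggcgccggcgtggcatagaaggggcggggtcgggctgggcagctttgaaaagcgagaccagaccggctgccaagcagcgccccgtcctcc
Oosp1 held the E-box CACCTG or CAGGTG 2 times, Omt2a 3 times, Tcl1b1 2 times and Zp3 1 time, and the Omt2b and Ooep windows held 0 of this sequence. Of the 37 members with a RefSeq window, 22 (59.5%) held at least 1 such E-box on either strand, against 6640 (20.2%) of all 32851 windows of the same length. The motif was chosen after these sequences had been seen, and a match is a string of letters and not a bound site. No other motif was searched, and E-boxes of other sequence were not counted. The members do not stand for separate cases, since the Tcl1b1 to Tcl1b5 windows were 73.3% to 94.3% identical over their 10 pairs, while those of Omt2a and Omt2b, which lie in the same region of chromosome 9 as Ooep, were 58.3% identical.

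In morulae, no difference between the maternal genotypes was called for any of the 25 members that reached 1 RPKM. The limma-trend test on log2(RPKM + 1) called 0 of the 25 at an adjusted p under 0.05 and 0 had an unadjusted p under 0.05. It also called 0 (0.0%) of the 10329 genes tested, 92 of which had an unadjusted p under 0.05. With the replicate number added to this test as a block, 0 of the 25 were called. Of the 10329 genes, that fit called 111 higher and 53 lower in matKO. In that fit 2 of the 25 had an unadjusted p under 0.05, as did 843 of all genes tested. The median log2 fold change of matKO over CTR was 0.06 for the 25 members and 0.02 for all genes tested.

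Obox6, of the oocyte-specific homeobox family, had the highest level, with 741 and 218 RPKM in matKO morulae, against 1221 and 131 RPKM in CTR morulae. In both groups the library numbered 1 was several times above the library numbered 2, and the groups overlapped. Ooep, of the subcortical maternal complex, ran the other way, with 19.7 and 69.3 RPKM in matKO morulae and 16.3 and 55.3 RPKM in CTR morulae. Padi6, the complex's peptidylarginine deiminase, had 31.4 and 20.05 RPKM in matKO morulae, against 41.0 and 10.4 RPKM in CTR morulae. The matKO values of Padi6 thus lay inside the CTR range, with equal group means of 25.7 RPKM. The other members of the complex were low: Zbed3 averaged 2.66 ± 0.872 RPKM in matKO and 3.57 ± 1.67 RPKM in CTR morulae, and Tle6, a Groucho-type corepressor, averaged 2.03 ± 0.409 RPKM in matKO and 1.55 ± 0.705 RPKM in CTR morulae (SD, n = 2 each). Nlrp5, also called Mater, stayed under the filter with a mean of 0.853 RPKM.

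Of the zona pellucida genes, Zp3, which encodes a glycoprotein that takes part in sperm binding, had 28.0 and 26.4 RPKM in matKO morulae, against 65.9 and 21.9 RPKM in CTR morulae. Zp2 had 1.20 and 1.16 RPKM in matKO morulae and 2.16 and 0.629 RPKM in CTR morulae, and Zp1 was under the filter at a mean of 0.563 RPKM. For both Zp3 and Zp2, 1 CTR library was the highest of the 4 and the other CTR library the lowest. The growth factor Gdf9 had 1.65 and 1.80 RPKM in matKO morulae, against 2.51 and 1.43 RPKM in CTR morulae. Figla itself had 13.4 and 20.05 RPKM in matKO morulae, against 9.12 and 16.4 RPKM in CTR morulae. Its log2 fold change of 0.39 had a standard error of 0.41.

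The Khdc1 genes encode KH-domain proteins of the oocyte and embryo, and their similar copies can share reads, as can those of the Nlrp4, Nlrp9, Obox, Omt2 and Tcl1b families. Khdc1c had 34.3 and 28.75 RPKM in matKO morulae, against 40.9 and 14.96 RPKM in CTR morulae. Khdc1a had 20.3 and 11.4 RPKM in matKO morulae, against 31.0 and 10.6 RPKM in CTR morulae. Khdc1b had 5.67 and 6.39 RPKM in matKO morulae, against 13.3 and 2.03 RPKM in CTR morulae. In all 3 genes the CTR values spanned the matKO values.

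Omt2b, an oocyte maturation gene, had 21.9 and 3.64 RPKM in matKO morulae, against 23.9 and 6.04 RPKM in CTR morulae. Its neighbour Omt2a had 14.3 and 3.57 RPKM in matKO morulae, against 11.8 and 7.16 RPKM in CTR morulae. Npm2, a nucleoplasmin that acts on sperm chromatin, had 6.46 and 8.84 RPKM in matKO morulae, against 19.9 and 6.59 RPKM in CTR morulae. Oosp1, which encodes an oocyte-secreted protein, had 7.90 and 2.19 RPKM in matKO morulae, against 3.05 and 1.14 RPKM in CTR morulae. Its log2 fold change of 0.86 was the largest among the 25 members, with a standard error of 0.60 and an adjusted p of 1. The authors' deposited table of 178 genes higher in matKO morulae lists Oosp1 with a log2 fold change of 1.23, and their table of 270 genes lower in matKO morulae holds no member.

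Tcl1, a coactivator of AKT kinase, was the single member of the 25 whose groups did not overlap, with 3.27 and 3.52 RPKM in matKO morulae, against 3.69 and 6.69 RPKM in CTR morulae. Such a gap with CTR above matKO was seen in 8.81% of all genes tested and the opposite gap, which no member showed, in 10.3%. The other tested members, Dazl, Accsl, Nlrp14, Tcl1b1, Nlrp4e, Btg4, Obox2 and Obox5, had means from 1.005 RPKM for Obox5 to 5.53 RPKM for the RNA-binding protein gene Dazl. The 23 members under 1 RPKM were Zp1, Bmp15, Nlrp5, Nlrp2, Nlrp4a, Nlrp4b, Nlrp4f, Nlrp9a, Nlrp9b, Nlrp9c, Obox1, Obox3, Tcl1b2, Tcl1b3, Tcl1b4, Tcl1b5, H1foo, Zar1, Mos, Oas1d, Nobox, Sohlh1 and Kit, with means of 0.0415 RPKM for Nlrp2 to 0.853 RPKM for Nlrp5.

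**Figure D1:**
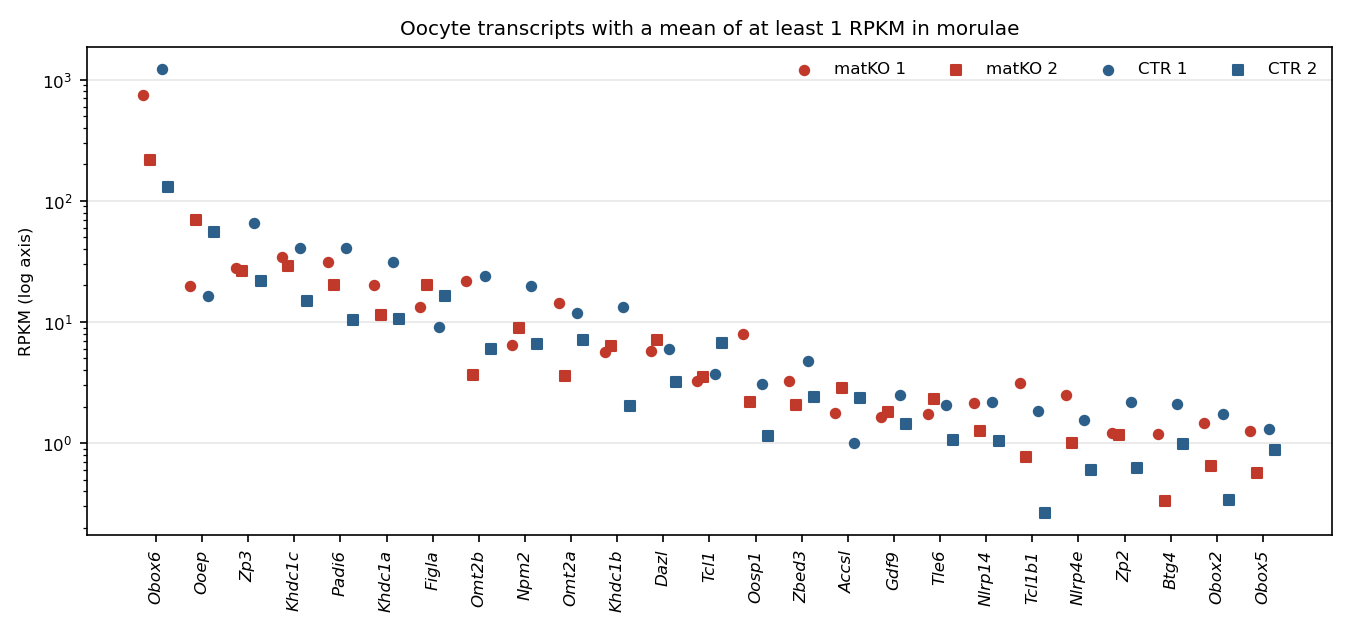
RPKM on a log axis of the 25 members that averaged 1 RPKM or more in morulae, ordered by that mean, with circles for replicate 1 and squares for replicate 2 of each group. Obox6 spans 131 to 1221 RPKM, for 16 of the 25 members both circles lie above both squares, and for Ooep, Figla and Accsl both squares lie above both circles.

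The replicate number went with the level of most of these transcripts, whatever the genotype. Both libraries numbered 1 were above both numbered 2 for 16 of the 25 tested members, a pattern found in 34.7% of all genes tested. The opposite order held for 3 members, Ooep, Figla and Accsl, against 29.5% of all genes. The 16 include Zp2, Zp3, Oosp1, Omt2a, Omt2b, Padi6, Zbed3, Btg4 and Obox6. The summed level of 13 genes of the 2-cell stage moved the same way, with 25.5 and 10.5 RPKM in matKO morulae, against 37.5 and 6.56 RPKM in CTR morulae. Its largest part was Tdpoz2, with 14.5 and 8.01 RPKM in matKO morulae, against 16.7 and 3.98 RPKM in CTR morulae. The Zscan4 genes of that list had at most 0.480 RPKM. Of these, Zscan4d did not keep the order, with 0.278 and 0.147 RPKM in matKO morulae, against 0.127 and 0.336 RPKM in CTR morulae. The apolipoprotein gene Apoa1 was higher in the libraries numbered 2, with 24.1 and 116 RPKM in matKO morulae, against 21.5 and 125 RPKM in CTR morulae. It made up most of the sum over 8 visceral endoderm genes, which was 27.4 and 120 RPKM in matKO morulae, against 24.9 and 129 RPKM in CTR morulae. What the replicate numbers stand for is not given in the sources used here, and their part in the members' levels was not tested.

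Allelic reads separated the members into maternal, biallelic and paternal ones. In the edgeR quasi-likelihood test of maternal over paternal reads across all 4 morula libraries, 11 members had the mean of 20 allelic reads per library needed to be tested. Of these, 5 were called higher from the maternal allele and 2 higher from the paternal allele, against 22.1% and 15% of the 7872 genes tested (37.1% in either direction).

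Zp2 gave 22 and 34 maternal reads in matKO morulae, against 31 and 11 in CTR morulae, and 0 paternal reads in any library. Taking 3 paternal reads over the 4 libraries as the limit that a count of 0 allows, the maternal allele was at least 32.7-fold higher (adjusted p = 0.0022). With DESeq2 in place of edgeR, the adjusted p for Zp2 was 0.063. Gdf9 gave 91 maternal and 4 paternal reads, a log2 ratio of 4.58 (adjusted p = 0.0024), and its maternal share was 90% to 100% across the libraries. Tcl1 was 96.6% and 93.2% maternal in matKO morulae, against 100% and 84.1% in CTR morulae, a log2 ratio of 3.64 (adjusted p = 0.0026). These 3 transcripts thus came almost wholly from the maternal allele, with a maternal share of at least 84.1% in each library.

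Khdc1b was mainly maternal, at 76.8% and 86.3% in matKO morulae, against 85.3% and 74.5% in CTR morulae (log2 ratio 2.17, adjusted p = 0.00091). Khdc1a was less so, at 77.9% and 61.7% in matKO morulae, against 69.2% in each CTR library (log2 ratio 1.18, adjusted p = 0.0077). Without matKO replicate 1 the Khdc1a value was not called (adjusted p = 0.068). Both transcripts had reads from both alleles in every library.

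Zp3 and Figla were mainly paternal. Zp3 had a maternal share of 26.9% and 17.8% in matKO morulae, against 20.2% and 25.6% in CTR morulae, with 137 maternal and 495 paternal reads in all (log2 ratio -1.80, adjusted p = 0.00074). Figla was 11.1% and 14.7% maternal in matKO morulae, against 5.88% and 25.9% in CTR morulae (log2 ratio -2.48, adjusted p = 0.0098). The Figla call rested on 96 reads and was lost without matKO replicate 1 (adjusted p = 0.073) or matKO replicate 2 (adjusted p = 0.069).

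The 4 members that were tested and not called had reads from both alleles in similar numbers. Obox6, with 14127 allelic reads the best covered, was 49.8% and 38.5% maternal in matKO morulae, against 47.6% and 39.0% in CTR morulae. Its 95% Wilson intervals, which cover counting error only, were 48.2% to 51.5% and 36.5% to 40.5% in the matKO libraries, against 46.4% to 48.8% and 36.4% to 41.6% in the CTR libraries. The Obox6 share therefore differed between replicate numbers beyond counting error, in the same way in both groups. Ooep was 50.3% and 59.5% maternal in matKO morulae, against 55.2% and 53.4% in CTR morulae. Padi6 was 55.7% and 49.5% maternal in matKO morulae, against 53.5% and 63.5% in CTR morulae. Accsl was 53.3% and 40.9% maternal in matKO morulae, against 30% and 41.0% in CTR morulae. The log2 ratios of these 4 ran from -0.49 for Accsl to 0.30 for Padi6.

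**Figure D2:**
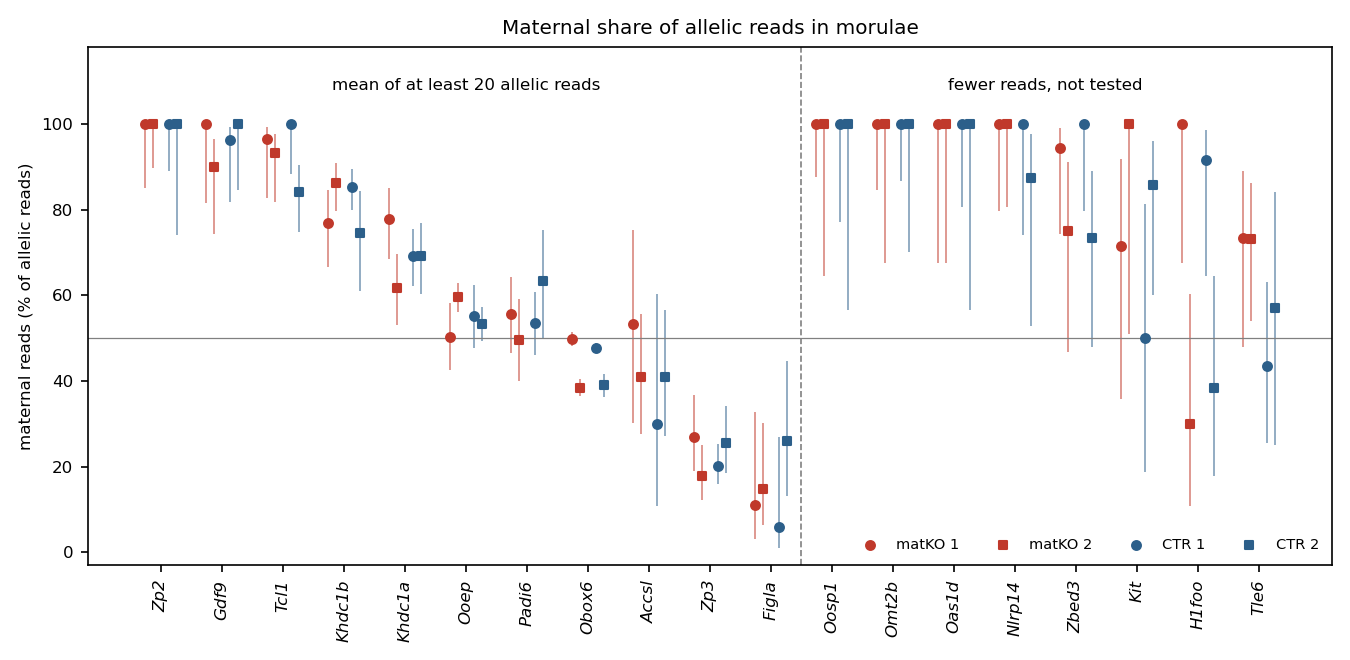
Maternal share of allelic reads in each morula library, as percent, for the 19 members with at least 30 allelic reads in all, with 95% Wilson intervals as vertical lines. Zp2, Oosp1, Omt2b and Oas1d sit at 100% in all 4 libraries, and Zp3 and Figla lie at or below 26.9%. Obox6 lies at 38.5% to 49.8%, Ooep at 50.3% to 59.5% and Padi6 at 49.5% to 63.5%.

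A further 13 members had allelic reads but too few to be tested. Oosp1 gave 52 maternal and 0 paternal reads, Omt2b 63 and 0, Oas1d 37 and 0, Nlrp9c 11 and 0, and Zar1 10 and 0. Nlrp14 gave 49 maternal reads and 1 paternal read, and Nlrp4a 18 and 2. With Zp2, Gdf9 and Tcl1, 10 of the 24 members with allelic reads had a pooled maternal share of at least 90%, and these 10 had mean levels of 0.299 to 13.9 RPKM. Of the 11 members with enough reads to be tested 3 reached that share, as did 1.89% of all genes tested, whose median share was 51.8%. Zbed3, with 52 maternal and 8 paternal reads, lay just under it. The best expressed members with allelic reads, Obox6, Ooep, Zp3 and Padi6, were not among the 10. Tle6 was 73.3% and 73.1% maternal in matKO morulae, against 43.5% and 57.1% in CTR morulae, on 41 and 30 reads in the groups. Kit gave 24 maternal and 7 paternal reads, H1foo 27 and 16, Dazl 5 and 13, and Nlrp4f 3 and 2. In H1foo, which encodes an oocyte linker histone, the share followed the replicate number, at 100% and 30% in matKO morulae, against 91.7% and 38.5% in CTR morulae.

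A high share was also seen outside the members. Pou5f1, a pluripotency gene from a list of blastomere genes, gave 577 maternal and 2 paternal reads, while 7 other genes of that list with enough reads were 43.6% to 68.1% maternal. Whether the Pou5f1 reads came from the oocyte or from the embryo was not tested. What strain and parent each contributed to the members' shares cannot be told apart.

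No tested member was called for a change in allelic balance with the maternal genotype. In the test of the change in maternal over paternal ratio between matKO and CTR morulae, 0 of the 11 members were called and 0 had an unadjusted p under 0.05, and DESeq2 also called 0. Across the 7872 genes, 2 (0.0254%) were called, both higher in matKO, and 314 had an unadjusted p under 0.05. The log2 changes of the members ran from -1.38 for Gdf9, on 3 paternal reads in matKO and 1 in CTR, to 0.84 for Tcl1. For the better covered members the changes were 0.04 for Obox6, 0.09 for Ooep, -0.05 for Zp3 and 0.04 for Khdc1a.

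By embryonic day 6.5, most of the 48 transcripts were at or near 0 in ExE, and the 44 members with a mean under 1 RPKM were not tested. The 4 that were tested were Tle6, Zbed3, Dazl and Omt2b, and limma-trend called 0 of them, against 0.0504% of the 9915 genes tested. Of the 4, Tle6 had an unadjusted p under 0.05, as did 1592 of the 9915 genes. Omt2b passed the filter only through the matKO female 2 and male 2 libraries.

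Tle6 had a lowest level of 4.71, a median of 7.58 and a highest level of 10.5 RPKM in the 9 matKO libraries, against 4.72, 4.52, 4.08 and 5.58 RPKM in the CTR libraries. The groups overlapped in the matKO males 1 to 3, and the 4 matKO females had 7.004 to 9.11 RPKM. Its log2 fold change was 0.54 ± 0.19 (SE), with an unadjusted p of 0.015 and an adjusted p of 0.21. The matKO male 4 and male 5 libraries held the highest levels among the 9, at 9.59 and 10.5 RPKM, and without them the log2 fold change was 0.36. These are the libraries with the low Esrrb, Bmp4 and Sox2 levels given above, whose part in the Tle6 values was not tested. The difference between the sexes in this change was 0.28 ± 0.38 (SE) on the log2 scale, with an adjusted p of 0.99, and 0 of the 4 members and 0 (0.0%) of all genes were called in that test, which gave 170 genes an unadjusted p under 0.05.

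Zbed3, whose product belongs to the same complex, had a lowest level of 1.05, a median of 1.69 and a highest level of 3.50 RPKM in matKO libraries, against 2.11, 2.50, 2.36 and 1.66 RPKM in CTR libraries. Its log2 fold change was -0.15 ± 0.20 (SE). Dazl, a translational regulator of germ cells, had a lowest level of 0.786, a median of 2.24 and a highest level of 4.36 RPKM in matKO libraries, against 2.76, 2.37, 2.76 and 3.30 RPKM in CTR libraries, with a log2 fold change of -0.16 ± 0.24 (SE). For both genes the CTR values lay inside the matKO range. Some members under the filter were still above 0 in nearly every library. Ooep had 0.0535 to 1.08 RPKM in matKO and 0.393 to 0.891 RPKM in CTR libraries, Nlrp4f had 0.141 to 0.780 RPKM in matKO and 0.327 to 0.849 RPKM in CTR libraries, and Zp3 had 0 to 1.10 RPKM in matKO and 0.306 to 0.442 RPKM in CTR libraries.

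**Figure D3:**
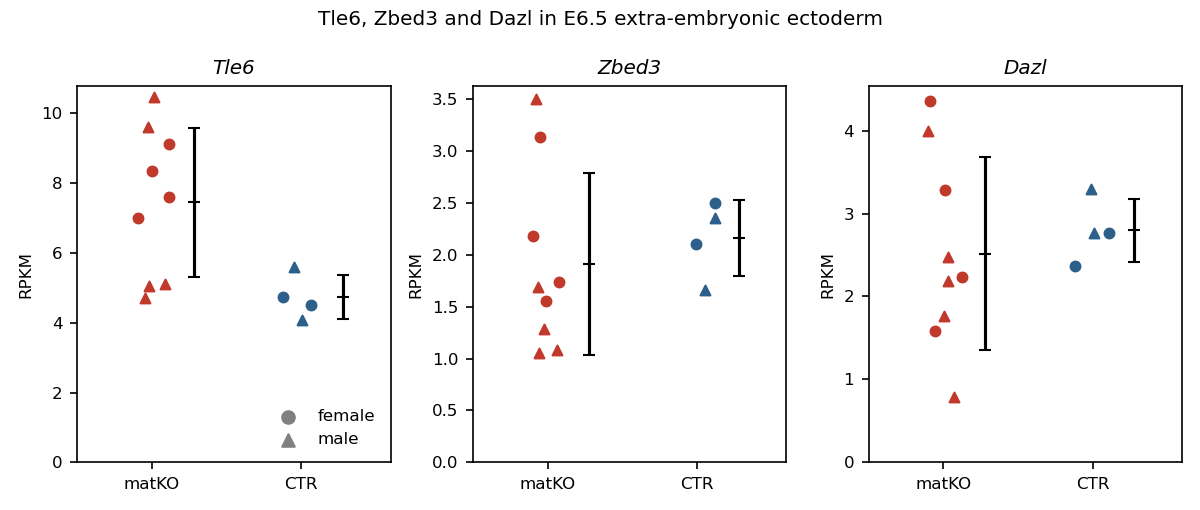
RPKM of Tle6, Zbed3 and Dazl in each ExE library, matKO left and CTR right, with circles for females and triangles for males and with black bars for the group mean and SD (n = 9 matKO, n = 4 CTR). Tle6 averages 7.44 RPKM in matKO and 4.72 RPKM in CTR libraries with overlap, and the matKO spread is wider than the CTR spread in all 3 genes.

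Tle6 was transcribed from both alleles in ExE, with a maternal share of allelic RPKM of 46.4% ± 3.59 in matKO (SD, n = 9) and 45.0% ± 8.83 in CTR (SD, n = 4) libraries. Zbed3 was mainly maternal, at 73.9% ± 11.2 in matKO and 79.6% ± 6.42 in CTR libraries. Oas1d, which had 37 maternal reads and no paternal read in morulae, was mainly paternal in ExE, averaging 0.145 maternal and 1.08 paternal RPKM in matKO libraries and 0.230 maternal and 2.24 paternal RPKM in CTR libraries. Its total level in ExE was low, at 0 to 0.480 RPKM in matKO and 0.161 to 0.526 RPKM in CTR libraries. Allelic values of Oas1d above 0 were listed in 7 of the matKO libraries. In the limma test of the log2 allelic ratio between matKO and CTR, 7 members were tested: Tle6, Zbed3, Ooep, Zp3, Oas1d, Omt2b and Tcl1. Of these 0 were called, against 0.393% of 9666 genes, and 0 of the 7 had an unadjusted p under 0.05. Omt2b and Tcl1 passed the filter only through the matKO female 2 and male 2 libraries, so their results do not describe the groups. Without those libraries 5 members were tested and 0 were called.

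In 2 ExE libraries, matKO female 2 and matKO male 2, a set of oocyte transcripts was present that was close to absent from the other 11. Omt2b had 6.23 RPKM in matKO female 2 and 8.60 RPKM in matKO male 2, and was listed at 0 in the other 7 matKO libraries and in all 4 CTR libraries. Omt2a had 2.72 and 3.76 RPKM in these libraries and at most 0.0805 RPKM in any other. Oosp1 had 0.910 and 1.04 RPKM there and at most 0.0635 RPKM elsewhere. These are the genes whose promoters are printed above together with Tcl1b1, which had 2.14 and 1.74 RPKM there and was listed at 0 in the other 11 libraries.

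The Tcl1 cluster on chromosome 12 moved as a block. Tcl1 had 2.91 RPKM in matKO female 2 and 2.47 RPKM in matKO male 2, and at most 0.222 RPKM in the other 11. Tcl1b2 had 0.673 and 1.30 RPKM, Tcl1b3 0.540 and 0.669 RPKM, Tcl1b4 0.327 and 0.507 RPKM, and Tcl1b5 0.364 and 0.250 RPKM in the same 2 libraries, and all 4 were listed at 0 in the other 11. Btg4, an adaptor for the deadenylase that removes maternal mRNA, had 1.13 and 0.379 RPKM there and was listed at 0 elsewhere. Khdc1b had 0.448 and 0.223 RPKM, Accsl 0.190 and 0.196 RPKM, and Bmp15, the partner of Gdf9 on the X chromosome, 0.154 and 0.122 RPKM. Obox5 had 0.0917 RPKM in matKO female 2 and 0.757 RPKM in matKO male 2, so the ratio between the libraries was not the same for each gene.

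The libraries were singled out because of these members, and their values are given as a description without a test. For 21 of the 48 members the 2 highest ExE libraries were matKO female 2 and matKO male 2, as for 182 (0.980%) of the 18562 genes above 0 in any ExE library. Of all 22521 listed genes, 7 had at least 0.5 RPKM in both libraries and under 0.1 RPKM in each of the other 11. These were the members Omt2a, Omt2b, Oosp1, Tcl1b1, Tcl1b2 and Tcl1b3, and Oog3, an oocyte gene outside the 48. Summed over the 48 members, the level was 35.8 RPKM in matKO female 2 and 38.6 RPKM in matKO male 2, 10.97 to 16.9 RPKM in the other matKO libraries and 12.7 to 13.4 RPKM in CTR libraries. The number of members above 0 was 41 and 38 in these 2 libraries, 14 to 20 in the other matKO libraries and 18 to 21 in CTR libraries.

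**Figure D4:**
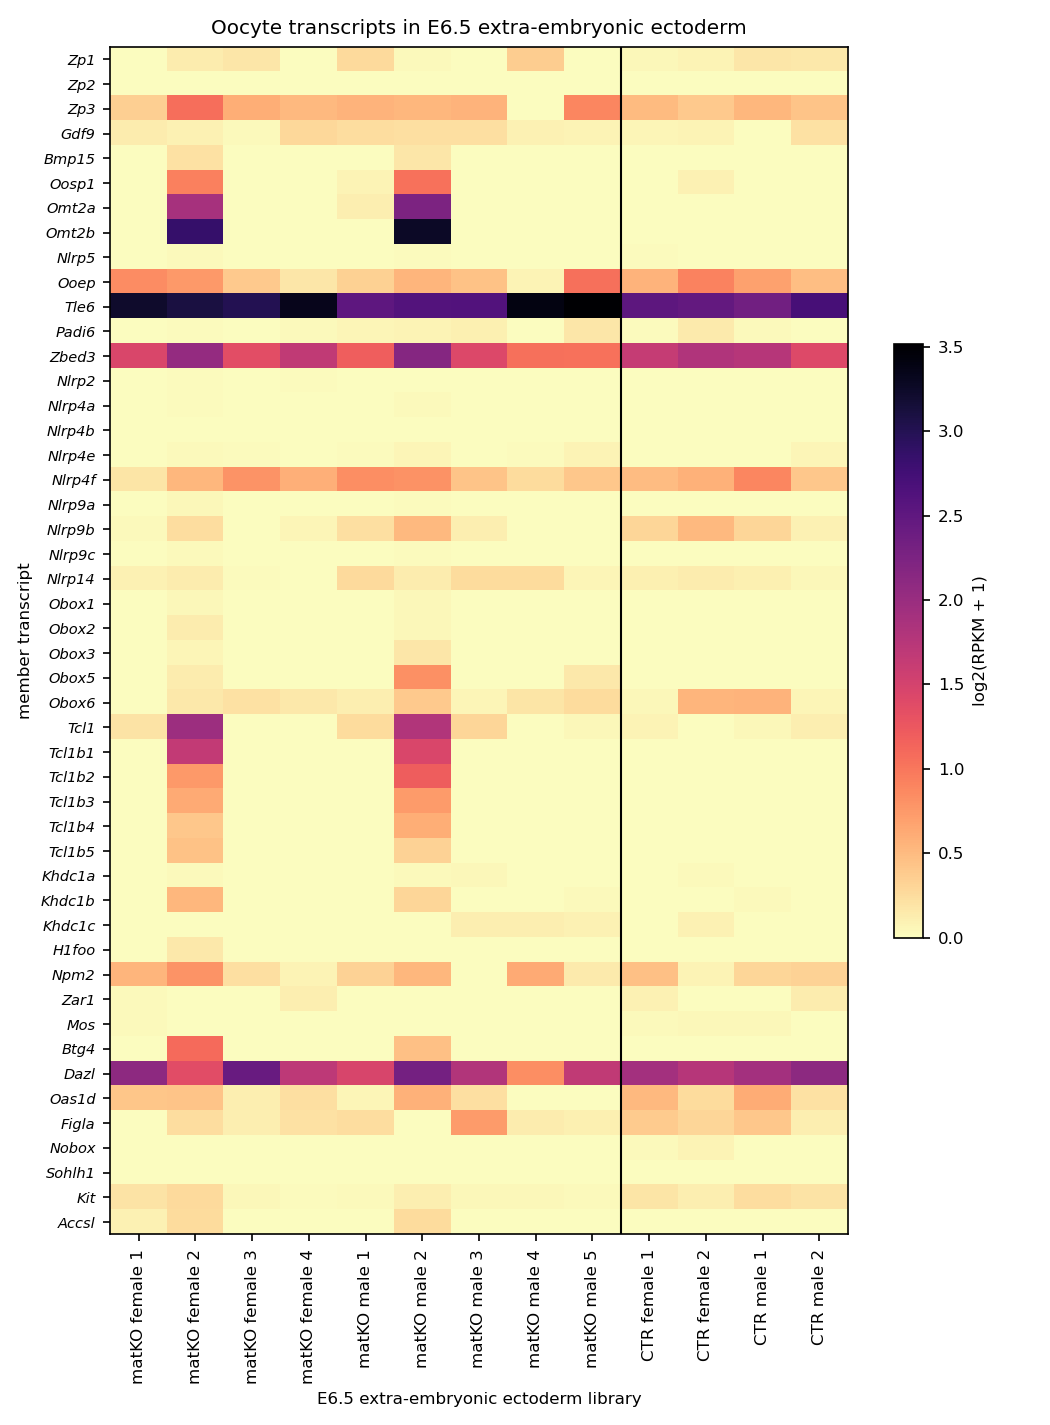
Heat map of log2(RPKM + 1) for the 48 members in the 9 matKO and, right of the line, the 4 CTR libraries of E6.5 ExE. Tle6, Zbed3 and Dazl are above 0 in all libraries, and Tle6 is the darkest row. Omt2a, Omt2b, Oosp1, the Tcl1 cluster and Btg4 are darker at matKO female 2 and male 2 than elsewhere, only faintly so for Tcl1b4 and Tcl1b5.

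Where allelic values existed, the extra transcripts in these libraries were maternal. Omt2b had 4.52 maternal RPKM in matKO female 2 and 10.4 in matKO male 2, with 0 paternal RPKM in both. Tcl1 had 11.9 and 12.3 maternal RPKM there and 0 paternal RPKM, and Oosp1 had 4.10 and 3.63 maternal RPKM and 0 paternal RPKM. The maternal values of Tcl1 and Oosp1 exceed their total levels given above, so allelic and total RPKM are not on the same scale. Of the 21 members with their 2 highest levels in these libraries, 9 had allelic values above 0 in both, and 8 of the 9 had 0 paternal RPKM in both. Those 8 were Oosp1, Omt2b, Tcl1, Tcl1b3, Tcl1b4, Tcl1b5, Khdc1b and Accsl, and the ninth was Zbed3, which is expressed in all libraries. Accsl had been 41.7% maternal over its pooled reads in morulae.

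**Figure D5:**
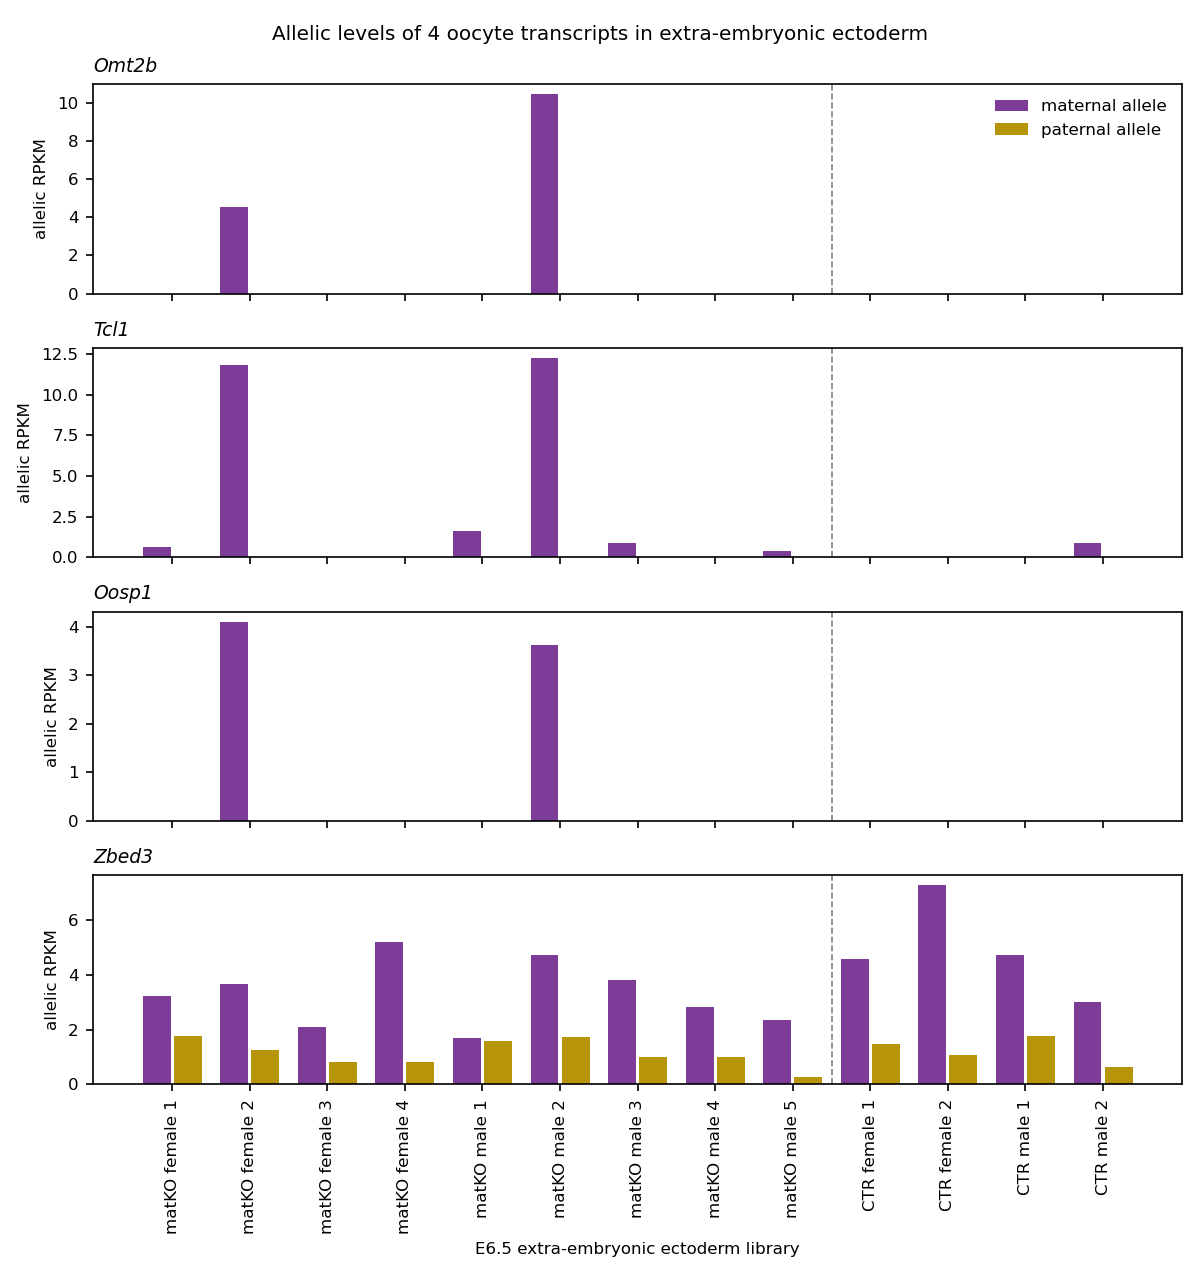
Allelic RPKM of Omt2b, Tcl1, Oosp1 and Zbed3 in each ExE library, with bars for the maternal and paternal allele, the 9 matKO libraries left of the dashed line and the 4 CTR libraries right of it. In matKO female 2 and male 2 the bars of Omt2b, Tcl1 and Oosp1 are maternal, and Zbed3 has bars of both alleles in every library.

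Summed over the members, maternal RPKM was 50.7 in matKO female 2 and 50.8 in matKO male 2, 14.3 to 25.3 in the other matKO libraries and 11.6 to 20.3 in CTR libraries. The paternal sums of 21.5 and 17.3 RPKM in these 2 libraries lay within the 13.3 to 25.0 RPKM of the other matKO libraries.

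The set in these 2 libraries was not the set most abundant in morulae. Obox6, at 131 to 1221 RPKM in morulae, had 0.120 and 0.309 RPKM in matKO female 2 and male 2, within the range of the other ExE libraries. Khdc1c, at 14.96 to 40.9 RPKM in morulae, was listed at 0 in both, and Padi6 had 0.0159 and 0.0493 RPKM. Omt2b, at 3.64 to 23.9 RPKM in morulae, reached a level in these 2 libraries inside that range, and Tcl1b1, at 2.14 and 1.74 RPKM, lay inside its morula range of 0.265 to 3.12 RPKM. Tcl1b5, at 0.364 and 0.250 RPKM, lay above its highest morula level of 0.0987 RPKM. Zp2, which was wholly maternal in morulae, was listed at 0 in all 13 ExE libraries.

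Other lists of genes were read in the same 2 libraries. The sum over 13 genes of the 2-cell stage was 0.207 and 0.304 RPKM there, against 0 in the other 7 matKO libraries and at most 0.0716 RPKM in CTR libraries. The sum over 12 cumulus and granulosa cell genes was 2.23 and 3.87 RPKM, 1.14 to 4.38 RPKM in the other matKO libraries and 2.13 to 3.14 RPKM in CTR libraries. Fshr and Cyp19a1 of that list were listed at 0 in all ExE libraries, Ptx3 was above 0 in matKO male 2 alone, at 0.0204 RPKM, and Amh was highest there, at 0.0958 RPKM. All other genes of that list were highest outside these 2 libraries. Among them, Has2 had 0.880 RPKM in matKO female 1 and Inha had 0.138 RPKM in matKO male 5. The sum over 7 decidua genes was 3.72 and 3.10 RPKM, 2.11 to 4.03 RPKM in the other matKO libraries and 2.44 to 3.15 RPKM in CTR libraries. Of the decidua genes, Dcn was above 0 in matKO female 2 alone, at 0.0640 RPKM, and Prl8a2 in matKO male 2 alone, at 0.0494 RPKM, while Col3a1 was listed at 0 in all 9 matKO libraries. Hand2 was listed at 0 in both and had 0.0521 RPKM in matKO male 3, and Pgr, Cryab and Des were highest in other libraries. The Eed maternal share was 17.1% and 15.4% in matKO female 2 and male 2. The source of the oocyte transcripts in these 2 libraries was not tested.

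Omt2b is listed in the authors' deposited tables of genes that differ in matKO ExE, with a log2 fold change of 4.05 among 154 genes in females and 4.19 among 400 genes in males. In the 4 female and 5 male matKO libraries used here, its level rested on 1 library in each sex. Without matKO female 2 and matKO male 2, Omt2b was not tested because it was listed at 0 in every library left.

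A second list of 40 oocyte genes outside the 48, of which 39 were found, held no called gene. In morulae 21 were tested and 0 were called, with a median log2 fold change of -0.11, and in ExE 16 were tested and 0 were called, with a median of -0.03. Dppa3, which protects the maternal genome from demethylation, had 8091 and 7241 RPKM in matKO morulae, against 12272 and 6347 RPKM in CTR morulae. The tetraspanin gene Cd9, the maternal complex gene Khdc3, Gtsf1, Trim28 and Spin1 followed it in level, with means of 1780, 675, 149, 125 and 39.5 RPKM. In ExE the highest were Cd9, Trim28, Spin1, Uhrf1, Dnmt1 and Zfp36l2, with means of 485 to 7.96 RPKM. Oog3 had 0.884 RPKM in matKO female 2 and 1.17 RPKM in matKO male 2 and was listed at 0 in the other 11 ExE libraries. Bcl2l10, an anti-apoptotic gene of the oocyte, had 0.794 and 0.512 RPKM there and at most 0.155 RPKM elsewhere.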

How the data were processed

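RNA-seq of whole morulae and of E6.5 ExE was made with SMARTer Ultra Low Input amplification and Nextera XT libraries, per the labels' protocols. HISAT2 2.1.0, Cufflinks 2.2.1 and the mm9 build are named, with no role, in the submitters' processing notes. Strandedness and the rules for assigning reads to alleles are not given in the sources used here. The authors deposited RPKM of all genes, allelic RPKM and, for morulae, allelic read counts, and log2 fold changes of their called genes. Of the columns of per-sample values, 47 were not used: those in the authors' tables of called genes, and the ExE allelic read counts, which did not match the allelic RPKM of the same library names. The 13 allelic RPKM libraries each lay closest to their own column of total RPKM. The H3K27me3 CUT&RUN samples were not analysed here.

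RPKM was tested as log2(RPKM + 1) with limma-trend (limma 3.58.1) on genes averaging 1 RPKM or more, with sex as a term in ExE, and fold changes on this scale understate those of low genes. For morula allelic counts, the quasi-likelihood test of edgeR 4.0.16 had a term for each library and took genes averaging 20 allelic reads or more. The ExE allelic test used limma on the log2 ratio of allelic RPKM + 1. All tests were fitted and Benjamini-Hochberg adjusted over all genes, with calls at 0.05, and were tested on simulated data. Alternatives were another pseudocount, other filters, quantile scaling, no trend, TMM, DESeq2 1.42.0, the replicate number as a block, and every library left out in turn. The members and gene lists were chosen with earlier results of these data known. Values per library are given for members called in any comparison and the 10 highest of each stage. Of the second oocyte list, the 6 highest of each stage are named, and older symbols were matched through RefSeq synonyms.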

Additional observations from a re-analysis of the deposited data

Results flagged for a closer look

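In the groups of 4 matKO female and 5 matKO male ExE libraries, 38 groups of values, from the 19 members that reached 0.5 RPKM in any ExE library, were searched for a library far from the others, and 22 were found. Chance gives about 1 in 20 such groups, but the count of 22 cannot be read against that rate, because 10 of the 19 members reached 0.5 RPKM only in matKO female 2 or matKO male 2. Of the 22, 10 were in matKO female 2 and 11 in matKO male 2. In matKO female 2 the outlying levels were 6.23 RPKM for Omt2b, 2.72 for Omt2a, 2.91 for Tcl1, 2.14 for Tcl1b1, 0.673 for Tcl1b2, 0.540 for Tcl1b3, 0.327 for Tcl1b4, 0.910 for Oosp1, 1.13 for Btg4 and 0.0917 for Obox5. In matKO male 2 they were 8.60 RPKM for Omt2b, 3.76 for Omt2a, 2.47 for Tcl1, 1.74 for Tcl1b1, 1.30 for Tcl1b2, 0.669 for Tcl1b3, 0.507 for Tcl1b4, 1.04 for Oosp1, 0.379 for Btg4, 0.757 for Obox5 and 3.50 for Zbed3. These transcripts share families and neighbouring positions, so the 21 values are not separate events. The remaining one was Figla, at 0.665 RPKM in matKO male 3, where the other matKO males had 0 to 0.177 RPKM.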

How the results depend on the processing

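No member was called under any alternative tried for the morula levels, the ExE levels, the sex difference, the change of the morula maternal share or the ExE allelic ratio. For maternal over paternal reads in morulae, 7 of 11 members tested were called. The counts were 13 of 24 with no filter, 13 of 22 with limma on allelic RPKM and 3 of 6 with the filter at 50 reads. Over all genes, 1740 were called maternal and 1177 paternal of 7872. With no filter these were 1848 and 1269 of 10723, with limma 1426 and 1368 of 10285, and with 50 reads 1551 and 1029 of 6060. Obox6, not called, was called paternal with TMM (adjusted p = 0.026), no filter (0.047), the replicate block (0.00018) and without CTR replicate 1 (0.0011). Counts over all genes moved more. Morula levels gave 0 calls, 164 with the replicate block, and 1 to 16 leaving out a library. ExE levels gave 5 calls, against 10 at a pseudocount of 0.1, 38 with no filter, 11 with the filter at 5 RPKM, 13 with quantile scaling, 11 with no trend, 45 with the replicate block, and 3 to 17 leaving out a library. Chosen after seeing the data, ExE levels gave 21 without matKO female 2 and male 2 and 69 without matKO male 4 and male 5. The sex difference gave 0, against 1 with no filter, 4 with the replicate block and 0 to 1 leaving out a library. Maternal over paternal gave 2917, and 1429 to 2885 leaving out a library. The share change gave 2, against 14 with DESeq2, 4 with no filter, 0 with limma, 43 with the replicate block and 0 to 123 leaving out a library. The ExE allelic ratio gave 38, against 19 with no filter, 21 with the replicate block and 10 to 112 leaving out a library. Libraries of the same number deviated together in the 2 morula pairs (r = 0.70 across genes) and not in ExE (-0.04 to 0.06), and the labels do not say that the number pairs them. With 2 libraries a group, the morula levels are the least precise, and members with few allelic reads have shares known only broadly.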
